A study of Homo sapiens with 10 samples.

Results

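The forkhead box genes encode transcription factors that share a winged-helix DNA-binding domain and are grouped into subfamilies by a letter. They were taken here as the protein-coding GENCODE genes whose symbol is FOX, 1 letter from A to S and a number, with the FOXD4-like copies included and FOXA1 left out, which gave 49 genes of 20033 protein-coding genes. Several members act as pioneer factors that bind nucleosomal DNA in endoderm-derived tissues such as the prostate, the FOXO proteins are held in the cytoplasm by AKT signalling, and FOXM1 drives genes of the G2 and M phases. H3K27ac and H3K18ac are acetyl marks placed mainly by p300 and CBP at active promoters and enhancers.

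ChIP-Seq of both marks was compared between C4-2B, a castration-resistant human prostate adenocarcinoma line of the LNCaP lineage, and C4-2BER, its derivative made by long exposure to enzalutamide, an androgen receptor antagonist, and described as neuroendocrine-like. C4-2BER is 1 derived line, so its resistance, its lineage state and the drug it was grown in cannot be told apart. Each mark was profiled in 2 libraries of each line, beside 1 input each, and the authors merged the replicates before calling peaks, so that each mark and line has 1 peak list. Every value below is therefore 1 value per pooled list, with no replicate error and no test.

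The value of a peak is its fold enrichment over the local background, as deposited. A promoter was the 1000 bp to each side of the canonical TSS, and its value was the highest fold enrichment among the peaks that reach it. A promoter counted as increased if the value in C4-2BER was at least 2-fold that in C4-2B or if the peak was missing in C4-2B, and as decreased if the reverse held. Over all protein-coding promoters with a peak in both lines the median log2 ratio of C4-2BER to C4-2B was -0.51 for H3K27ac and -0.34 for H3K18ac, so each log2 ratio is also given relative to that median. The lists hold 68034 and 72971 H3K27ac peaks and 198451 and 197948 H3K18ac peaks in C4-2B and C4-2BER. Of the marker genes used to check the lines, 8 of 8 luminal genes had H3K27ac at the promoter in both lines, and 3 of 8 neuroendocrine genes had it in C4-2B against 4 of 8 in C4-2BER. Of the markers of other cell types, 1 of 3 fibroblast and 1 of 2 endothelial genes had an H3K27ac promoter peak in both lines, and none of 3 basal and none of 3 immune genes had one in either line.

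The bases before the start site are shown for 4 members that span the range of promoter acetylation: FOXQ1 and FOXD1, whose H3K27ac was higher in C4-2BER, FOXK1, which had the highest H3K27ac of the family in both lines, and FOXR2, which had no promoter peak in any list. Each is the 250 bases upstream of the start site from RefSeq on GRCh38.p14, 5′ to 3′ on the strand of the gene, with every CG dinucleotide in capitals. They lie at chr6:1311848-1312097 on the plus strand for FOXQ1, chr5:73448778-73449027 on the minus strand for FOXD1, chr7:4682045-4682294 on the plus strand for FOXK1 and chrX:55623150-55623399 on the plus strand for FOXR2.
FOXQ1: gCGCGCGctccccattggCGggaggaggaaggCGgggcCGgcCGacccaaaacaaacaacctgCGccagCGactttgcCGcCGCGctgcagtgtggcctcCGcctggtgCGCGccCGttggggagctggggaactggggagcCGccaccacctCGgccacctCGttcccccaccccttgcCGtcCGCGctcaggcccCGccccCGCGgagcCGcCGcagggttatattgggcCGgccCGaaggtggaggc
FOXD1: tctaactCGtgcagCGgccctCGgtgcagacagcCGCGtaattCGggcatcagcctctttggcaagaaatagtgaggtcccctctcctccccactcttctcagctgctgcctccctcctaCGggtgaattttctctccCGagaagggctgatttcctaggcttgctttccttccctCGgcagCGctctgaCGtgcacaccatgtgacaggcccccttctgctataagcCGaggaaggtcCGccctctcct
FOXK1: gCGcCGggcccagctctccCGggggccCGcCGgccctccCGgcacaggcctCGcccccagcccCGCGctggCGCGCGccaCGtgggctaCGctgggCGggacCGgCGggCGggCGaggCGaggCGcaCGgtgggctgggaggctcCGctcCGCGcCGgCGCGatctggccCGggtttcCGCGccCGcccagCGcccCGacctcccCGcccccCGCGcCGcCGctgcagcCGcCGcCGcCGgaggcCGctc
FOXR2: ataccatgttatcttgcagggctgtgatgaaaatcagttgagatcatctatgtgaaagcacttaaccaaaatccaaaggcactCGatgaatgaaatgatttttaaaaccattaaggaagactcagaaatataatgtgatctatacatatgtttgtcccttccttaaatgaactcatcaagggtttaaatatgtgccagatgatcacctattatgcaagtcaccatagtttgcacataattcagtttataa
The FOXK1 sequence held 44 CG dinucleotides, FOXQ1 held 29, FOXD1 held 13 and FOXR2 held 1.

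Promoters of the family were rich in G and C. Over the 2000 bp windows the median GC content was 62.5% for the 49 forkhead genes and 56.0% for all protein-coding genes. The 26 members with both marks in both lines had a median of 64.7%, while the 9 members with no peak in any list had a median of 51.9%. Most of those 9 are FOXD4 and its copies, whose windows may lack reads. The 11 members with H3K18ac but no H3K27ac in both lines had a median of 61.8%. The forkhead recognition sequences TGTTTAC and TGTTTGC were searched on both strands in the RefSeq promoters, which were given for 38 members. Either sequence was found in 4 of the 38 promoters, or 10.5%, against 5.7% of 15345 protein-coding promoters, and the 4 were FOXO4, FOXD4, FOXD4L3 and FOXD4L6. The last 3 are copies of a like promoter. FOXD4 and FOXD4L6 are 96.9% identical and hold TGTTTGC at the same position, -10, so they are not separate occurrences.

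An H3K27ac promoter peak was present at 28 of 49 forkhead genes in C4-2B, against 69.1% of all protein-coding genes, and at 27 in C4-2BER, against 69.6%. For H3K18ac the same 40 genes had a peak in each line, against 83.8% and 81.1% of all genes. The 49 include FOXD4 and its copies, which had no promoter peak in any list and may lack reads. Counting them lowers the share of the family with a peak. Both marks in both lines were found at 26 members. Another 11 members carried H3K18ac without H3K27ac in both lines, which is 22.4% of the family, while 8.65% of all protein-coding genes and 20.6% of the 34 SOX and POU genes were in that state.

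The members with H3K18ac alone were FOXA2, FOXC2, FOXE1, FOXE3, FOXI1, FOXI2, FOXI3, FOXL1, FOXL3, FOXN1 and FOXR1, and most are known as regulators of organ or tissue development. Their H3K18ac was low. The fold enrichment ran from 2.46 to 3.25 in C4-2B and from 2.22 to 3.23 in C4-2BER, while the 26 members with both marks had medians of 7.85 and 5.93. The 11 members had medians of 2.84 and 2.51. All 1733 protein-coding genes in that state had medians of 2.83 and 2.46, so the low values were not particular to the family. FOXA2, a pioneer factor of endoderm that is used as a marker of neuroendocrine prostate tumours, had an H3K18ac fold enrichment of 3.22 in C4-2B and 3.09 in C4-2BER and no H3K27ac promoter peak in either line.

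The 9 members with no promoter peak in any list were FOXP2, FOXP3, FOXR2, FOXD4 and the copies FOXD4L1, FOXD4L3, FOXD4L4, FOXD4L5 and FOXD4L6. The FOXD4 promoter windows resemble each other, with an identity to the closest copy of 76.7% to 96.9%, and 58.4% to 94.3% of their 50-base words occur in another copy. The authors kept alignments with a mapping quality of at least 10, so reads from such windows could have been removed, and the absence of a peak there cannot be told apart from missing reads. FOXP2, a regulator of neural circuits, had no peak at its canonical TSS but did at a start site 328255 bp upstream. There its H3K27ac fold enrichment was 3.33 in C4-2B and 3.81 in C4-2BER, and its H3K18ac was 4.39 and 3.52.

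**Figure D1:**
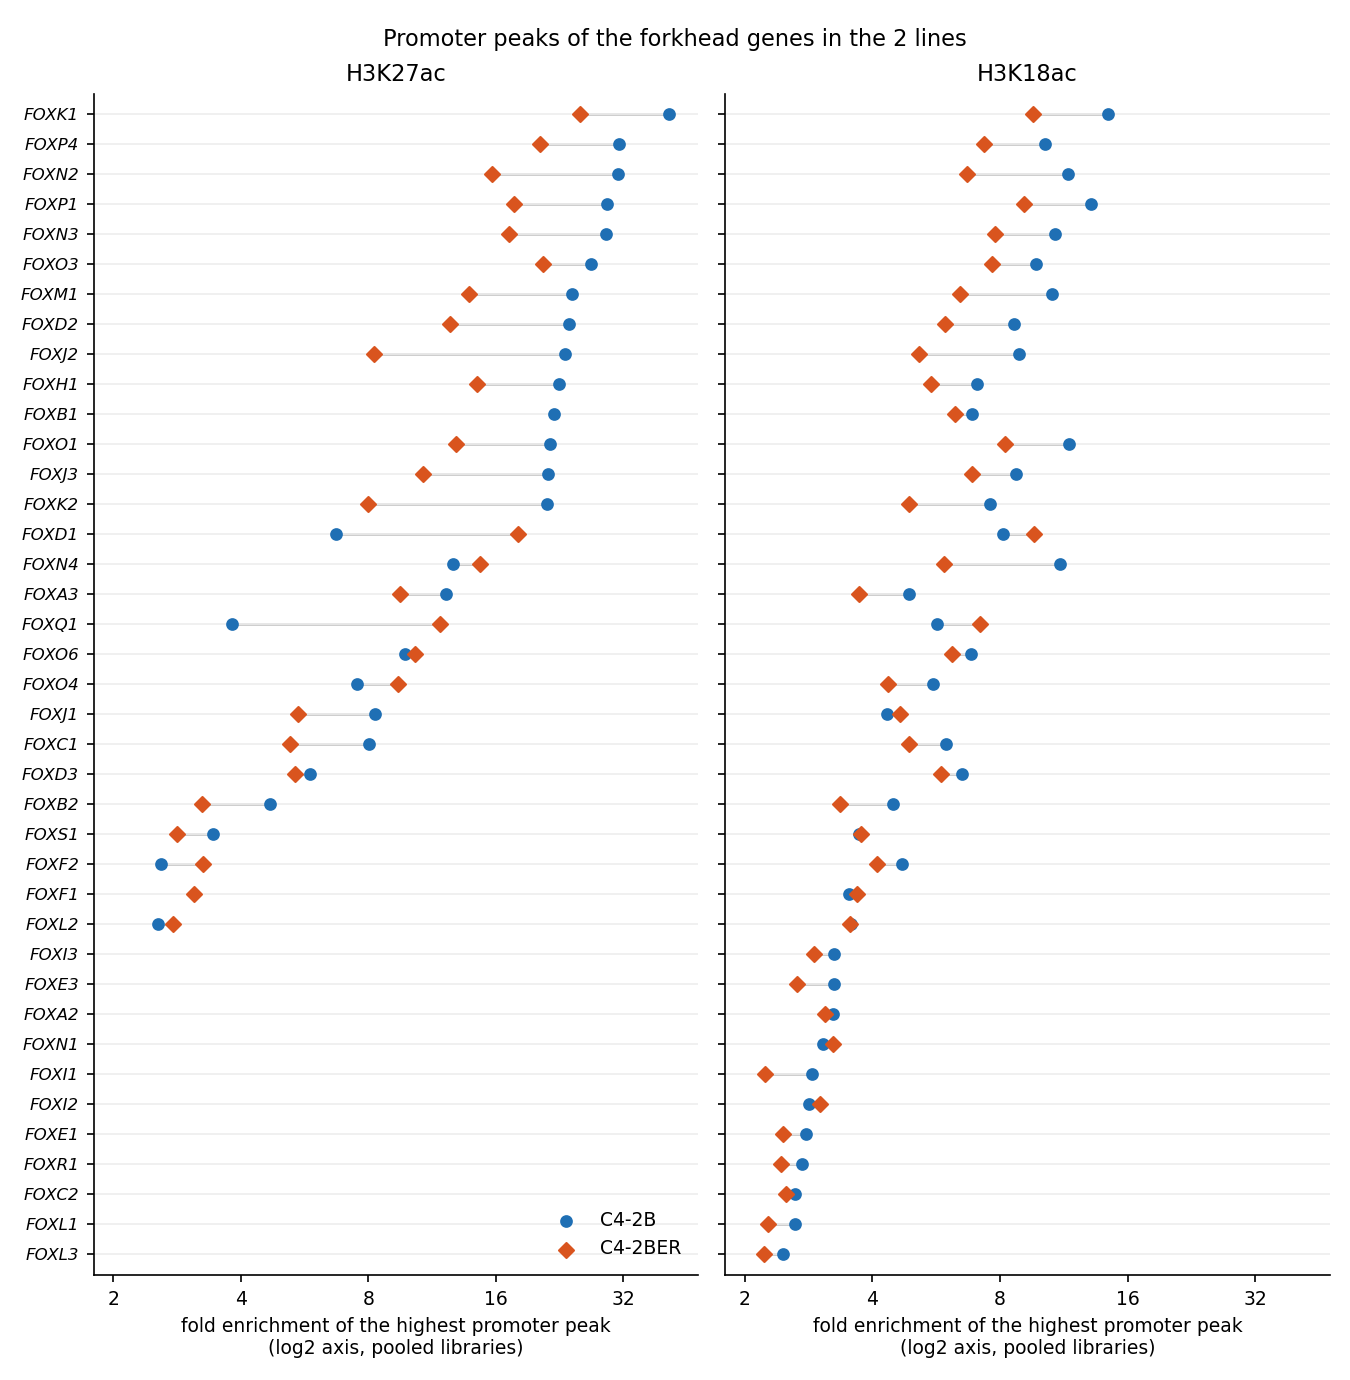
Fold enrichment of the highest promoter peak (log2 axis) for 39 of the 40 forkhead genes with a promoter peak, for H3K27ac (left) and H3K18ac (right). Circles are C4-2B and diamonds C4-2BER, 1 pooled list each with no replicate error, and a missing symbol is a promoter without a peak. FOXD1 and FOXQ1 are the members with the diamond far to the right of the circle for H3K27ac.

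H3K27ac was higher in C4-2BER at 3 forkhead promoters and lower at 4, of 29 with a peak in either line. Among all protein-coding promoters with a peak, 4.61% were increased and 11.2% decreased. With the ratios centred on all shared promoters, 3 members were increased and 2 decreased, against 6.54% and 3.77% of all promoters. The increased members were FOXQ1, FOXD1 and FOXF1, and the decreased ones included FOXJ2, FOXK2 and FOXB1. For H3K18ac no member was increased or decreased by this rule, while 2.44% of all promoters were increased and 7.14% decreased. With centred ratios no member was called either, against 2.8% and 5.6% of all promoters.

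FOXQ1, a forkhead factor linked to epithelial plasticity in carcinomas, had an H3K27ac fold enrichment of 3.82 in C4-2B and 11.8 in C4-2BER. The log2 ratio was 1.63, or 2.14 relative to all promoters, which was the largest of the family. Its H3K18ac was 5.68 in C4-2B and 7.16 in C4-2BER, a log2 ratio of 0.33. The peak covered the TSS and the 5′ part of the single exon in both lines, with a width of 3042 bp in C4-2B and 3310 bp in C4-2BER.

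FOXD1, a regulator of kidney stroma and retina in development, had an H3K27ac fold enrichment of 6.71 in C4-2B and 18.01 in C4-2BER. The log2 ratio was 1.43, or 1.94 relative to all promoters. Among protein-coding promoters with an H3K27ac peak it stood at or above 15.2% in C4-2B and 86.5% in C4-2BER. Its H3K18ac was 8.14 and 9.62, the latter the highest promoter value of the family in that list. The antisense gene FOXD1-AS1 starts 2420 bp inside FOXD1 and has the same peaks, so the marks of both genes cannot be told apart.

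FOXF1, a mesenchymal factor needed for lung and gut development, had no H3K27ac promoter peak in C4-2B and a weak one of 3.10 in C4-2BER. That peak spanned -1374 to -340 bp from the TSS, and the nearest C4-2B peak of the mark was 21116 bp away. The H3K18ac of FOXF1 was 3.52 in C4-2B and 3.68 in C4-2BER. The C4-2BER peak of H3K27ac lay within the H3K18ac peaks of both lines, whose log2 ratio was 0.06.

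The absence of a peak at FOXB1 in C4-2BER depended on the edge of the window. At FOXB1, a factor of the developing brain, the C4-2B peak of 21.9 began 814 bp downstream of the TSS over the second exon, and the C4-2BER peak of 12.0 began 1229 bp downstream, 229 bp beyond the window. Joined into 1 region, chr15:60005125-60006829, the log2 ratio was -0.87, which was not counted as a change. H3K18ac covered FOXB1 at 6.89 in C4-2B and 6.25 in C4-2BER.

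FOXJ2 and FOXK2 had lower values over much wider peaks. At FOXJ2, a broadly expressed activator, H3K27ac was 23.3 in C4-2B over 2588 bp and 8.24 in C4-2BER over 8925 bp, a log2 ratio of -1.50. At FOXK2, which represses autophagy genes and binds the BAP1 deubiquitinase, it was 21.1 over 4866 bp and 7.99 over 21097 bp, a log2 ratio of -1.40. The fold enrichment is an average over the called peak. When all C4-2B peaks within the C4-2BER region were averaged by length, FOXK2 was 8.84 in C4-2B against 7.99, a log2 ratio of -0.15, and FOXJ2 was 18.3 against 8.24, a log2 ratio of -1.15. These C4-2B means leave out the bases between the peaks, so the 2 lines are not averaged over the same bases. Relative to all shared promoters the log2 ratio was -0.99 at FOXJ2 and -0.89 at FOXK2, and neither was counted as decreased.

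**Figure D2:**
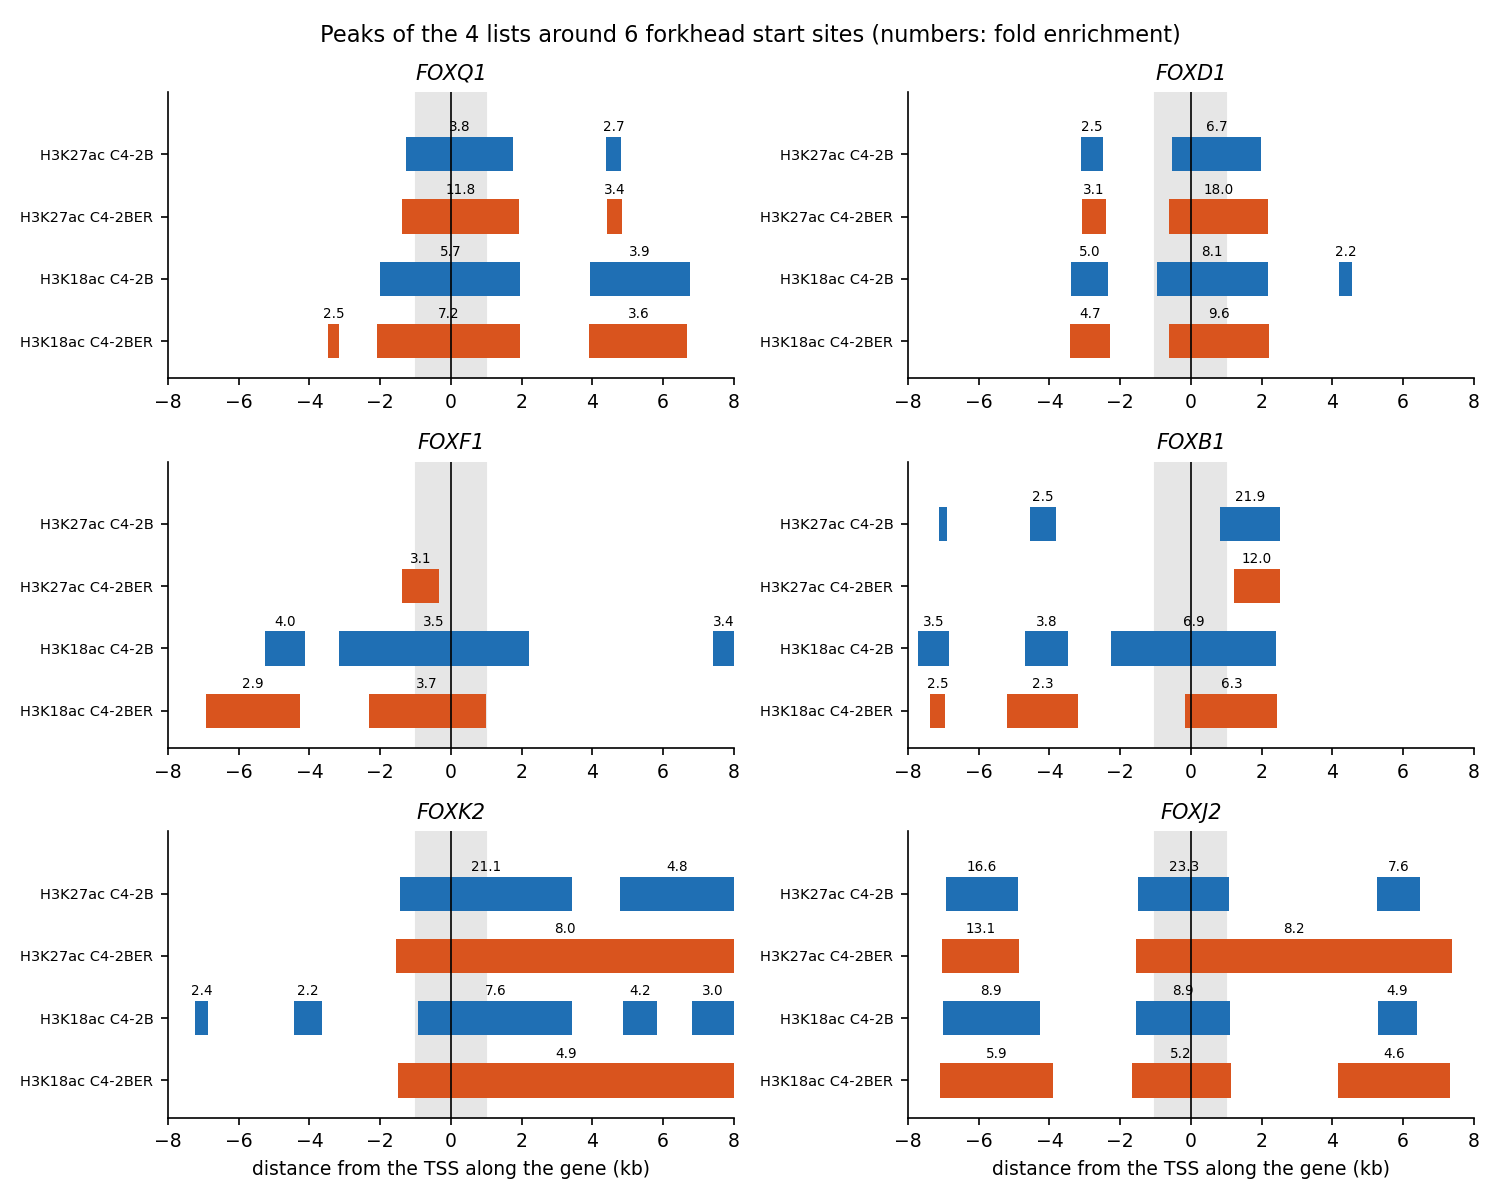
Peaks of the 4 lists within 8 kb of the TSS of 6 forkhead genes, with the distance along the gene in kb, C4-2B in blue and C4-2BER in orange, and the fold enrichment above each bar. The grey band is the 1000 bp to each side of the TSS. The FOXB1 peak of C4-2BER (12.0) lies just right of the band, and the FOXK2 peak of C4-2BER (7.99) runs past the panel.

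Wider peaks with lower values were also found at other members. The H3K27ac promoter peak was at least 1.5 times wider in C4-2BER at 8 of 26 shared forkhead promoters, or 30.8%, against 22.7% of all shared promoters. The 8 had a median log2 ratio of -0.96, and the 16 whose widths differed by less had a median of -0.37. Over all shared promoters the same medians were -0.63 and -0.50, so the order was the same there. Among the 16 were 2 increased promoters, FOXD1 and FOXQ1, and no decreased one. Of 9731 promoters of all genes with such widths, 33 were increased and 558 decreased. FOXD2, a factor of paraxial mesoderm, fell in value from 23.8 to 12.5. Its peak grew from 2005 to 7290 bp and joined a second C4-2B peak. In that joined region the C4-2B peaks had a length-weighted mean of 12.2, without the bases between them, against 12.5 in C4-2BER. The neighbouring FOXD2-AS1, whose promoter holds that second peak, was 3.98 in C4-2B and took the value of the joined peak, 12.5, in C4-2BER, and so counted as increased. FOXO6, an insulin-regulated member, had 9.77 and 10.3 while its peak widened from 5882 to 16339 bp.

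**Figure D3:**
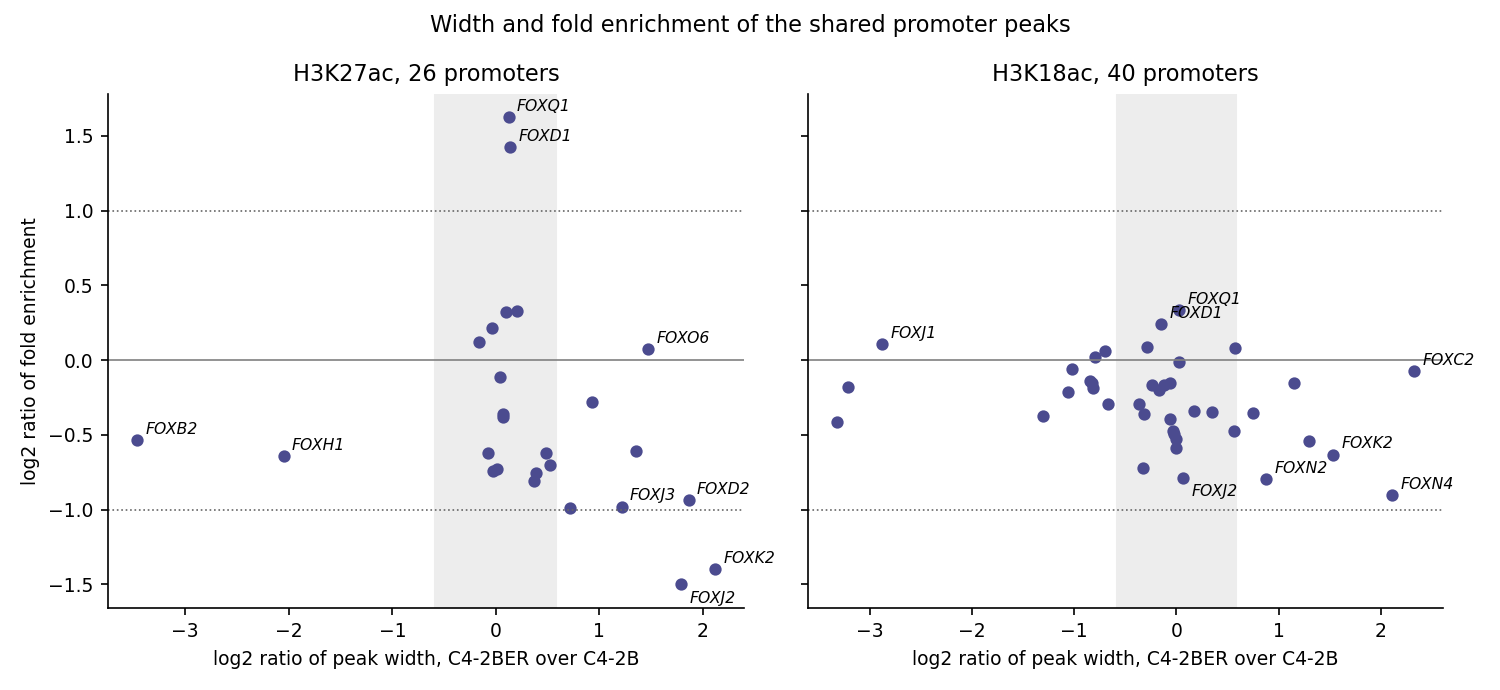
Log2 ratio of peak width (x axis) against log2 ratio of fold enrichment (y axis), C4-2BER over C4-2B, for the shared forkhead promoters of each mark. Grey marks a change of width below 1.5 times and dotted lines a 2-fold change of value. For H3K27ac, FOXD1 and FOXQ1 are the only points above the upper line and sit within the grey band, while FOXJ2 and FOXK2 lie below the lower line at large gains of width.

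The medians of the family stood near those of all genes. The median log2 ratio was -0.61 for H3K27ac over 26 members and -0.25 for H3K18ac over 40 members. Relative to all promoters the medians were -0.10 and 0.09. The C4-2BER value exceeded the C4-2B value at 7 of 26 promoters for H3K27ac and at 7 of 40 for H3K18ac, against 11.8% and 14.2% of all shared promoters.

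**Figure D4:**
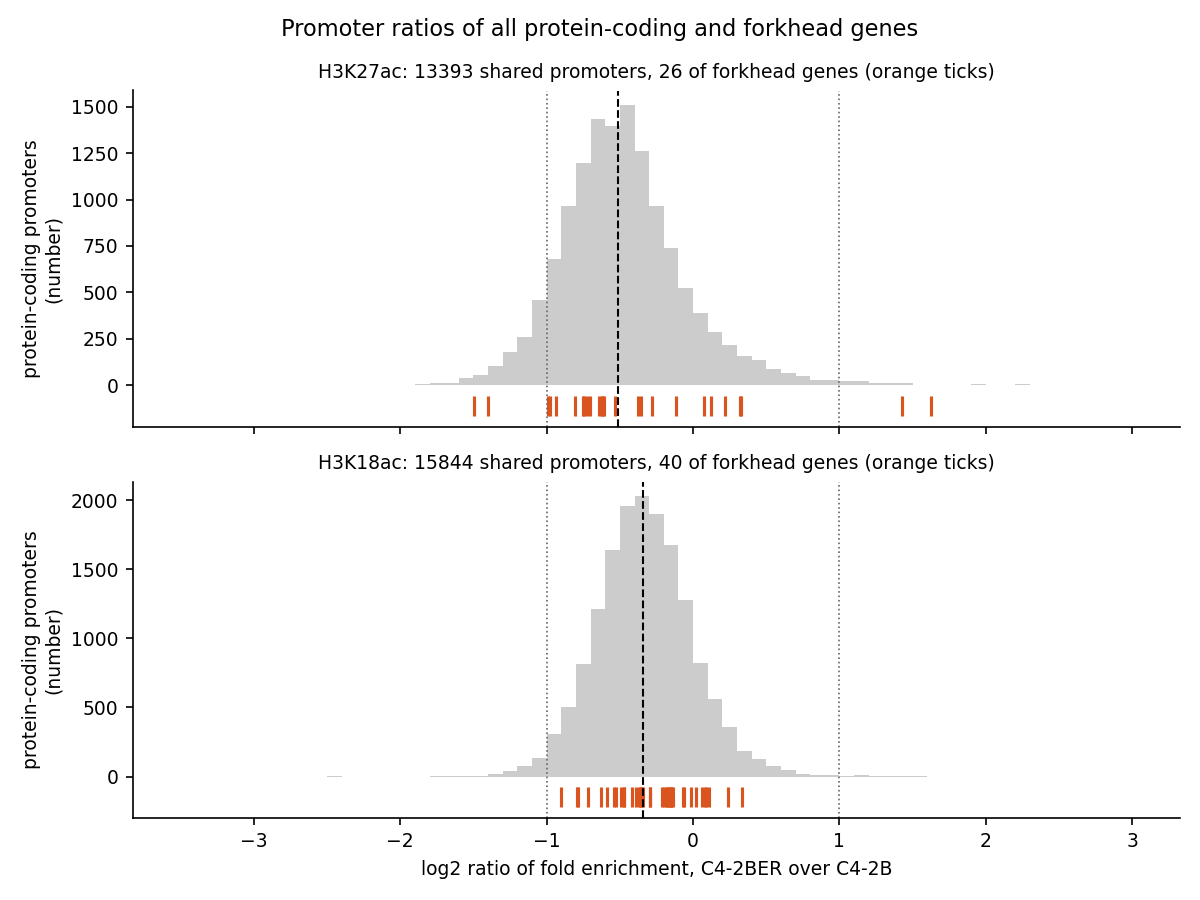
Log2 ratio of promoter fold enrichment, C4-2BER over C4-2B, for all protein-coding promoters with a peak in both lines (grey, number per 0.1 bin) and for forkhead genes (orange ticks), with H3K27ac above and H3K18ac below. Dashed lines are the medians of all promoters (-0.51 and -0.34) and dotted lines a 2-fold change. The ticks lie within the grey distributions, with FOXD1 and FOXQ1 in its right tail for H3K27ac.

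The 5 highest H3K27ac promoter values of the family in C4-2B were those of FOXK1, FOXP4, FOXN2, FOXP1 and FOXN3. FOXK1, a regulator of glycolysis and autophagy genes, had 41.1 in C4-2B and 25.3 in C4-2BER for H3K27ac, and 14.4 and 9.55 for H3K18ac. That placed it at or above 99.2% and 98.9% of protein-coding promoters with an H3K27ac peak. FOXP4 had an H3K27ac fold enrichment of 31.3 and 20.4, FOXN2 had 31.1 and 15.7, FOXP1 had 29.3 and 17.7, and FOXN3 had 29.0 and 17.2, in C4-2B and C4-2BER. FOXP1 and FOXP4 are transcriptional repressors that act in lung and lymphoid development, and FOXN2 and FOXN3 are widely expressed. FOXM1, the mitotic activator, had 24.2 and 13.9, from a window that also holds the start of RHNO1.

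The FOXO genes, which carry stress and starvation signals, did not move together. FOXO3 went from 26.8 to 20.6 and FOXO1 from 21.5 to 12.9 for H3K27ac. FOXO4 went from 7.53 to 9.42. Relative to all promoters, the H3K27ac log2 ratio was 0.13 at FOXO3, -0.23 at FOXO1, 0.83 at FOXO4 and 0.59 at FOXO6. H3K18ac was lower in C4-2BER at all 4, by log2 ratios of -0.49 to -0.15, and relative to all promoters it was higher at FOXO6, by 0.19. Of 20 FOXO target genes, H3K27ac was increased at 0 and decreased at 3 (KLF6, CCNG2 and TRIM63), and of 20 FOXM1 target genes at 0 and 1 (CDK1), beside the 4.61% and 11.2% of all promoters. With centred ratios the decreased counts were 1 and 0. H3K18ac was increased or decreased at none of either list.

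FOXA3, FOXC1 and FOXN4 illustrate members between these ends. FOXA3, a hepatic and intestinal pioneer factor, had 12.2 and 9.51 for H3K27ac and 4.88 and 3.72 for H3K18ac, but its H3K27ac peaks end before its own TSS and cover that of SYMPK. FOXC1, an eye and vessel factor, had 8.05 and 5.23 for H3K27ac and 5.96 and 4.87 for H3K18ac. FOXN4, a factor of retinal and spinal neurons, differed by mark. Its H3K27ac was 12.6 in C4-2B and 14.7 in C4-2BER, while its H3K18ac was 11.1 and 5.91, the lowest H3K18ac ratio of the family at -0.90, over a peak that widened from 1891 to 8150 bp.

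The other members with both marks spanned the range between these. FOXH1, a partner of SMAD proteins, had an H3K27ac fold enrichment of 22.5 and 14.4 in C4-2B and C4-2BER, and the C4-2B peak also covers the starts of KIFC2 and other genes. FOXJ3, a factor of muscle and germ cells, had 21.3 and 10.8, and FOXJ1 had 8.32 and 5.45. FOXD3, a neural crest factor, had 5.83 and 5.39. Low values were found at FOXB2, with 4.69 and 3.24 over a peak that narrowed from 4832 to 438 bp, at FOXS1, with 3.45 and 2.84, at FOXF2, with 2.59 and 3.25, and at FOXL2, the ovarian factor, with 2.55 and 2.78.

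Start sites other than the canonical one were annotated for 22 members in 79 groups. H3K27ac peaks lay at 32 groups, of which 4 were increased and 5 decreased, against 22.2% and 19.7% of such groups over all protein-coding genes. H3K18ac lay at 56, of which 11 were increased and 7 decreased, against 12.7% and 25.4%. Of the 11, 10 belonged to FOXP1, and neighbouring groups can share a peak. Among 14 lncRNA genes named after a forkhead gene, 7 had H3K27ac and 13 had H3K18ac. Several of them, among them FOXD1-AS1, FOXN3-AS1, FOXP1-DT and FOXP4-AS1, had the same promoter values as their forkhead gene. The shares over all lncRNA genes were not computed.

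Across the gene bodies and 50 kb to each side, 382 H3K27ac and 952 H3K18ac regions were formed by joining overlapping peaks of both lines, each with a length-weighted mean of the fold enrichment of its peaks. For H3K27ac, 92 regions were increased and 92 decreased, or 24.1% each, against 30.5% and 22.7% of all regions in the genome (with ratios centred on all shared regions, 94 and 89, against 31.4% and 21.6%). For H3K18ac, 181 (19.0%) were increased and 217 (22.8%) decreased, against 26.2% and 23.5% (centred, 182 and 217, against 26.3% and 23.4%). With only peaks whose −log10 q-value was 5 or more, the increased and decreased counts were 46 and 20 for H3K27ac, and 50 and 35 for H3K18ac, where the order turned. The shares over all regions of the genome were not computed with that minimum, so the turn cannot be assigned to these loci. Several loci overlap, namely FOXC2, FOXF1 and FOXL1 on chromosome 16, FOXD2 and FOXE3 on chromosome 1, and FOXF2 and FOXQ1 on chromosome 6, and a shared region was counted once.

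The loci differed in their counts. At FOXK1, 1 of 22 H3K27ac regions was increased and 11 were decreased, and of 38 H3K18ac regions 0 were increased and 22 (57.9%) decreased, although the promoter kept the top value of the family for H3K27ac in both lines. FOXJ1, the master regulator of motile cilia, had 2 increased and 8 decreased of 19 H3K27ac regions, and 1 and 14 of 24 for H3K18ac. FOXK2 had 6 and 6 of 26 for H3K27ac, or 23.1% each, and 2 and 15 of 38 for H3K18ac. FOXP1 had 39 increased of 135 H3K18ac regions, or 28.9%, which is near the share in the genome, and 16 decreased, or 11.9%. For H3K27ac it had 6 and 8 of 35. FOXO3 had 8 (42.1%) and 2 (10.5%) of 19 for H3K27ac and 12 (33.3%) and 3 (8.33%) of 36 for H3K18ac, and its H3K27ac peaks covered 27.1 kb in C4-2B and 55.8 kb in C4-2BER. The whole H3K27ac lists covered 117.1 Mb in C4-2B and 144.8 Mb in C4-2BER, so coverage was also larger in C4-2BER over the genome.

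Across the 45 loci with any increased or decreased region, the count of increased less decreased regions fell as the locus GC content rose. The Spearman rho was -0.36 and the Pearson r -0.35. The loci share the same 4 lists, so this is a description. Here the count was not scaled to the size of the locus, and a region shared by overlapping loci entered at each. The FOXK1 locus had a GC content of 52.7% and FOXP1 41.1%. Decreased regions were richer in GC, with a median of 57.4% against 53.1% of increased ones for H3K27ac, and 54.5% against 48.7% for H3K18ac. Over the whole genome the same medians were 55.2% and 49.6%, and 54.9% and 49.0%. The part of base composition in the direction of a locus was not tested.

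**Figure D5:**
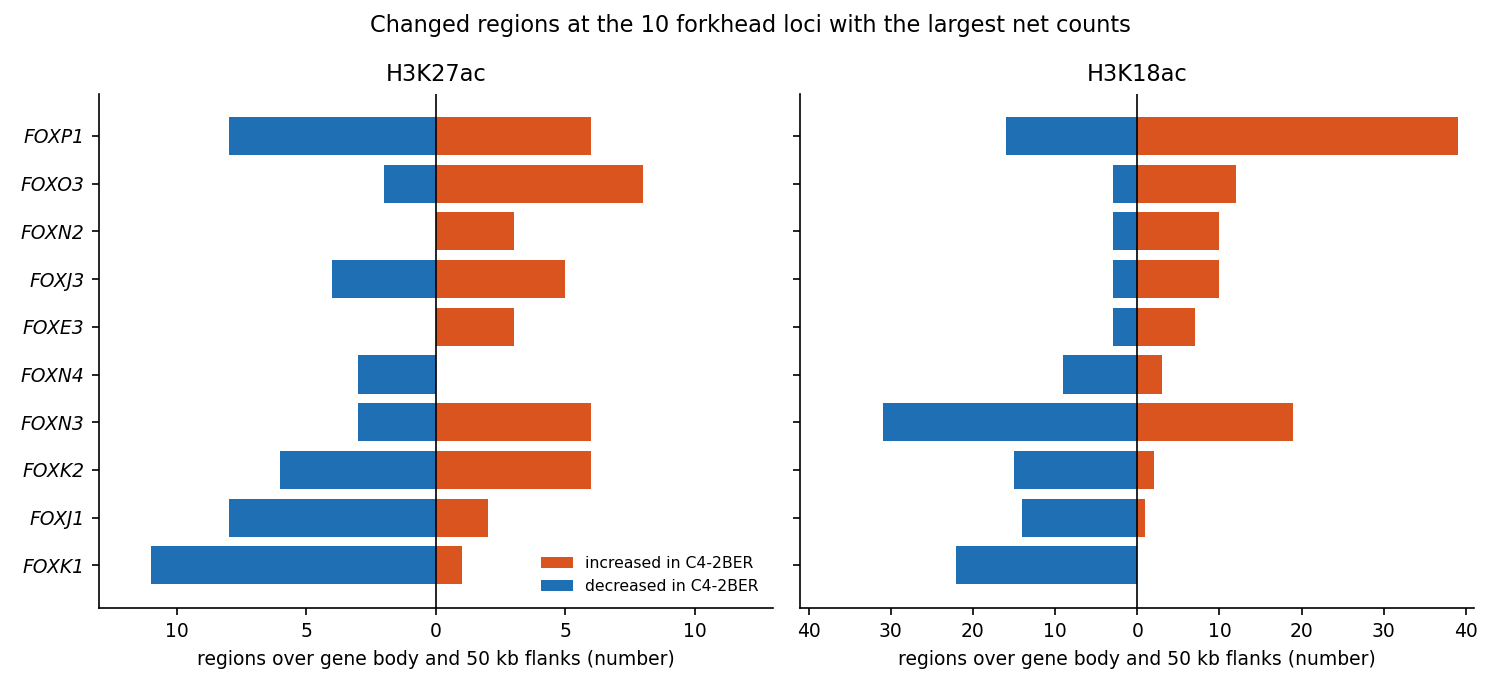
Number of regions increased (orange, to the right) and decreased (blue, to the left) in C4-2BER over the gene body and 50 kb flanks, for the 5 forkhead loci with the highest and the 5 with the lowest counts of increased less decreased regions over both marks. FOXK1 has 11 and 22 decreased regions for H3K27ac and H3K18ac, and FOXP1 has 39 increased ones of 135 for H3K18ac.

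Both marks changed the same way at 15 increased and 21 decreased regions of the forkhead loci. Such regions were not counted over the whole genome, so these counts have no background beside them. Within FOXP1, chr3:71394625-71396522 had H3K27ac of 8.42 in C4-2B and 2.18 in C4-2BER, and H3K18ac of 7.69 and 3.09. Within FOXP2, chr7:114372944-114373484 had H3K27ac of 6.56 in C4-2B and no peak in C4-2BER, and H3K18ac of 7.07 and 2.69. Near FOXJ1, chr17:76161333-76162160, in the body of another gene, had H3K27ac of 11.6 and 2.32, and H3K18ac of 6.77 and no peak. These 3 regions were the strongest of those with a lower value in C4-2BER, and each lay over 20 kb from the canonical TSS. The increased regions were weaker. The highest H3K27ac among them was 3.46 in C4-2BER, upstream of FOXP2 in another gene, and 3 lay within FOXO3, of which chr6:108578769-108584079 had 3.29 for H3K27ac and 2.86 for H3K18ac with no C4-2B peak of either mark.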

How the data were processed

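H3K27ac and H3K18ac ChIP-Seq libraries of C4-2B and C4-2BER were grouped by the labels, 2 per mark and line with 1 input each. Per the study's methods, reads were aligned to GRCh38 with bowtie2 (the methods and the submitters' processing notes give different versions), filtered for blacklisted regions, mapping quality of at least 10 and duplicates, and the authors merged replicates and called broad peaks with macs2. In the 4 deposited lists each peak has a fold enrichment, a ratio of signal to local background, and a −log10 q-value given by the authors. The fold is scaled to each list's own background, so ratios between lines carry differences in background. The depth is unknown and no test was possible.

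Here TSSs came from GENCODE release 44, with python 3.11.15, numpy 2.4.6 and pandas 2.3.3. The calling steps were tested on simulated lists. The named genes were FOXA3, FOXC1 and FOXQ1, members with a changed promoter, the 5 highest promoters per list, the 5 highest and 5 lowest loci, and members without a peak, and others were named to describe their subfamily. The members and gene lists were chosen with earlier results of these data known. In all, 13 other settings were listed at the outset. 1 member counted among the 49 is not reported here by name. Reads and the input libraries were not analysed here.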

Additional observations from a re-analysis of the deposited data

How the results depend on the processing

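No paired analysis was possible because the replicates of each mark and line had been merged into 1 list. Beside 13 settings listed at the outset, 3 were chosen after seeing the data: values of the joined region, log2 ratios centred in 20 bins of GC content, and peaks of like width.

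For promoter H3K27ac, 3 members were increased under the main rule and 4 decreased. The decreased count was 2 with centred ratios, 2 in GC bins, 2 with 500 bp windows, 1 with joined regions and 16 at a ratio of 1.5. Over all promoters the decreased shares in that order were 3.77%, 3.83%, 11.1%, 8.7% and 42.2%, against 11.2% under the main rule. FOXD1 and FOXQ1 stayed increased in every setting run. For H3K18ac the decreased count was 1 with every annotated TSS, 1 with 500 bp windows and 1 with 2000 bp upstream to 500 bp downstream. It was 2 with a fold enrichment of at least 4 and 6 at a ratio of 1.5. Over all promoters the decreased shares in that order were 6.16%, 7.49%, 6.96%, 9.27% and 25.0%, against 7.14% under the main rule. With the fold minimum the 2 were FOXA3 and FOXB2, whose C4-2BER peaks of 3.72 and 3.35 fell below it. Their log2 ratios under the main rule were -0.39 and -0.42, so neither was a 2-fold decrease. The increased H3K18ac count was 2 with only peaks whose −log10 q-value was 5 or more, against 0, beside 3.38% of all promoters with that minimum. The 2 were FOXF1 and FOXN1, whose C4-2B peaks fell below the minimum while their C4-2BER peaks passed it. Their log2 ratios under the main rule were 0.06 and 0.08, so the cut-off made these calls. The median H3K27ac log2 ratio was -0.10 with either centring, and the H3K18ac median changed sign to 0.088 when centred and 0.050 in GC bins. With a fold enrichment of at least 4, 25 members had H3K18ac in C4-2B and 23 in C4-2BER.

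Locus counts moved with the peaks and the flank kept. Increased and decreased H3K27ac regions were 46 and 20 with only peaks whose −log10 q-value was 5 or more, 21 and 18 with a fold enrichment of at least 4, and 52 and 49 with a 10 kb flank, and 143 were increased with 100 kb. For H3K18ac they were 50 and 35, 18 and 38, 102 and 109, and 288 and 345 with 100 kb. The order of increased and decreased H3K18ac regions turned with the q-value minimum, and its cause was not tested. Shares over all regions of the genome were not computed with the q-value or the fold minimum. The other settings stayed within 1.5 times the main counts.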
